A study of Drosophila melanogaster with 7 samples.

Results

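The small heat shock proteins of Drosophila melanogaster were followed in larval fat bodies through 7 genes, Hsp22, Hsp23, Hsp26, Hsp27, Hsp67Ba, Hsp67Bc and l(2)efl. They were chosen by name, not by a rule on measured values, from the 14804 genes that the expression tables list. Earlier results of these data were known when they were chosen. The fat body is the larval storage and secretory organ that also makes humoral immune proteins. The RasV12 larvae came from a cross of Bx-GAL4 to UAS-RAS V12, which carries a dominant-active Ras, and the control larvae from a cross of Bx-GAL4 to W1118, so that both groups carry the driver. Each group was measured in 3 libraries, and each library was made from the fat bodies of 40 pooled wandering larvae with the gonads left out. The driver is active in wing discs and salivary glands, so the transgene was not directed to the fat body that was measured. Larvae were pooled within a library, and the labels do not say whether libraries came from separate crosses, so p-values measure the spread between these libraries.

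Small heat shock proteins share an alpha-crystallin domain and hold unfolding proteins in solution without using ATP, until chaperones of the Hsp70 class can refold them. In Drosophila their genes answer to heat through the heat shock factor, and several of them are also switched on in unstressed animals by the moulting hormone ecdysone at the end of larval life. Stress and development can therefore both set their level in tissue from wandering larvae. Hsp22 is a mitochondrial protein and Hsp27 is mainly nuclear, whereas Hsp23 and Hsp26 are cytosolic. The product of l(2)efl is related to them and is abundant in muscle, and Hsp67Bc takes part in protein quality control together with the co-chaperone Starvin.

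In the annotation of the deposited tables (BDGP5), 6 of the 7 genes lie within 13567 bases of chromosome arm 3L, the cytological region 67B. The order along the arm was Hsp67Bc (9364818 to 9365417), Hsp22 (9366031 to 9368070), Hsp26 (9369518 to 9370527), Hsp67Ba (9370902 to 9372634), Hsp23 (9374984 to 9375867) and Hsp27 (9377165 to 9378384). The gene l(2)efl lies on chromosome arm 2R (19572174 to 19573063). A newer annotation, matched by gene ID, places Hsp22, Hsp23 and Hsp27 on the plus strand and the other members on the minus strand. The gene model of Hsp22 contains all 719 bases of that of Hsp67Bb, another gene of the cluster, and l(2)efl overlaps CG5431 by 78 bases. In the newer annotation Hsp67Bb lies on the plus strand as Hsp22 does, so assignment by strand could not separate their reads. The sources used here do not state that fragments were assigned by strand, so reads in the overlap of l(2)efl and CG5431 cannot be told apart either.

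**Figure D1:**
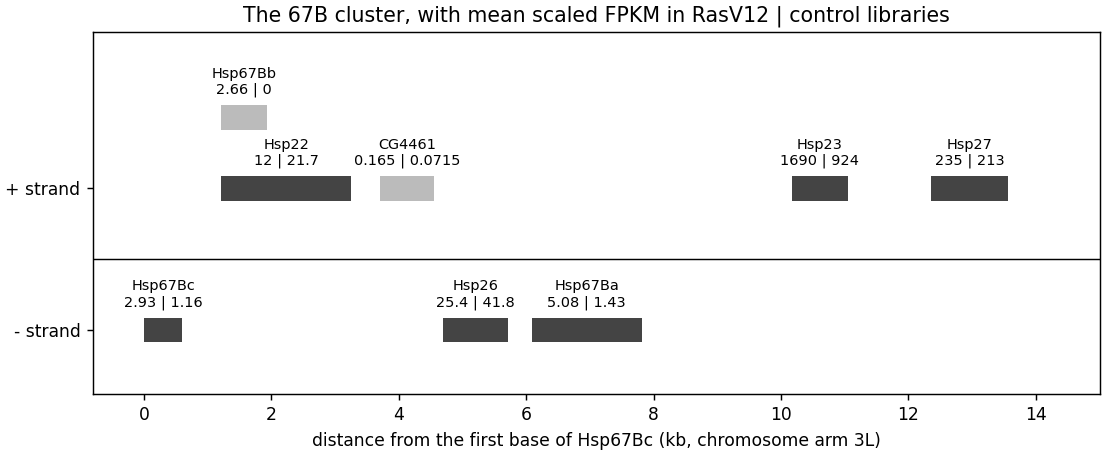
The 67B cluster drawn to scale in kb from the first base of Hsp67Bc, with plus strand genes above the line and minus strand genes below it, members in dark grey and the neighbours Hsp67Bb and CG4461 in light grey. The numbers are mean scaled FPKM in RasV12 and then control libraries (n = 3 each); Hsp23, at 1690 and 924, exceeds Hsp67Bc, at 2.93 and 1.16, in the same cluster.

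The values are FPKM, fragments counted per base of gene model and per mapped read, divided by the 75th percentile of the library relative to the mean of the 6 percentiles (scaled FPKM). The confidence bounds deposited beside each FPKM imply 4649422 to 7305940 fragments in the RasV12 libraries and 2910838 to 7328089 in the control libraries. The shallowest was control library 3, for which a first run (3A) and a repeat run (3B) were deposited and run 3A was taken. Ras85D had a scaled FPKM of 45.5, 47.1 and 31.6 in RasV12 libraries and of 36.2, 32.3 and 39.3 in control libraries, which overlap, so that it does not check the genotype of a library in this tissue. Fat body markers were abundant in all libraries, with a summed scaled FPKM of 69330 to 120116 in RasV12 and 117840 to 176742 in control libraries over the 10 genes of the list. Of the 9 that were tested, 8 had a log2 fold change (RasV12 over control) below 0, and the median was -0.42, beside 0.00 for all genes tested. In bulk tissue, fewer cells of a type and less RNA per cell cannot be told apart.

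The family was dominated by Hsp23. Its scaled FPKM was 1572, 3163 and 336 in RasV12 libraries 1, 2 and 3, against 1133, 461 and 1179 in control libraries 1, 2 and 3. It ranked 81st, 17th and 344th among all genes listed in the RasV12 libraries and 135th, 258th and 153rd in the control libraries. RasV12 library 2 was therefore highest and RasV12 library 3 lowest, and the 3 control values lay between them. The ratio of the group means was 1.83, with 1690 ± 1418 in RasV12 and 924 ± 402 in control libraries (SD, n = 3 each), and an exact two-sided permutation test gave p = 0.7, where 0.1 is the smallest value that 3 against 3 libraries can give. In limma's test with Benjamini-Hochberg adjustment the log2 fold change was 0.48 (95% interval -1.51 to 2.47, standard error 0.83, adjusted p = 0.863). Without RasV12 library 2 it turned to -0.23, and without RasV12 library 3 it was 1.39 (unadjusted p under 0.05, adjusted p = 0.272).

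Hsp27 was the next most abundant member. It had a scaled FPKM of 260, 371 and 73.0 in RasV12 libraries 1, 2 and 3, against 209, 155 and 275 in control libraries 1, 2 and 3. As for Hsp23, RasV12 library 2 held the highest value, RasV12 library 3 the lowest, and control library 2 the lowest among controls. The group means were 235 ± 151 and 213 ± 60.4 in RasV12 and control libraries (SD, n = 3 each), a ratio of 1.10 (exact two-sided permutation test, p = 0.9). Limma's estimate of the log2 fold change was -0.11 (95% interval -1.54 to 1.32, standard error 0.60, adjusted p = 0.963). Its sign differs from that of the ratio, since the mean of logarithms gives more weight to the low value of RasV12 library 3. It was 0.58 without that library and 0.11 without scaling between libraries.

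Hsp26 and Hsp22 followed another order of the libraries, in which only RasV12 library 1 and control library 1 changed places between the 2 genes. Hsp26 had a scaled FPKM of 15.3, 51.9 and 9.04 in RasV12 libraries, against 13.1, 88.2 and 24.0 in control libraries. Hsp22, the mitochondrial member, had 7.38, 24.6 and 4.14 in RasV12 libraries, against 10.2, 43.8 and 11.1 in control libraries. Control library 2 was highest for both genes, RasV12 library 2 came next and RasV12 library 3 was lowest, so the groups overlapped. The ratio of means was 0.608 for Hsp26 (25.4 ± 23.1 in RasV12 and 41.8 ± 40.6 in control libraries, SD, n = 3 each, exact permutation p = 0.6) and 0.555 for Hsp22 (12.0 ± 11.0 and 21.7 ± 19.1, exact permutation p = 0.4). In limma's test the log2 fold change was -0.62 for Hsp26 (95% interval -2.61 to 1.37, standard error 0.83, adjusted p = 0.814) and -0.82 for Hsp22 (95% interval -2.60 to 0.96, standard error 0.74, adjusted p = 0.724). Without control library 2 these values were 0.13 and -0.17, and the ratios of means were 1.37 and 1.13.

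The remaining members were scarce. Hsp67Ba had a scaled FPKM of 11.0, 2.85 and 1.36 in RasV12 libraries, against 1.74, 0.694 and 1.85 in control libraries, resting on 85, 40 and 16 fragments in RasV12 and on 17, 8 and 7 in control libraries. RasV12 library 1 stood 3.87-fold above the next library, and RasV12 library 3 lay among the controls. Its log2 fold change of 1.01 in limma's test had the lowest p of the family (95% interval -0.43 to 2.45, standard error 0.60, unadjusted p = 0.138, adjusted p = 0.619) and was 0.35 without RasV12 library 1. The ratio of its means was 3.56 (5.08 ± 5.21 in RasV12 and 1.43 ± 0.639 in control libraries, SD, n = 3 each, exact permutation p = 0.3). That ratio was 1.47 without RasV12 library 1 and 1.91 with run 3B in place of run 3A for control library 3.

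Hsp67Bc had 6, 16 and 3 fragments in RasV12 libraries and 4, 5 and 0 in control libraries, with a scaled FPKM of 3.16, 4.57 and 1.05 against 1.69, 1.77 and 0. The groups overlapped, because RasV12 library 3 lay under control libraries 1 and 2. At the depth of control library 3, a count of 0 allows a scaled FPKM of up to 3.29, taken as 3 fragments, which is above the value in 2 of the RasV12 libraries. Such limits cover counting error only. In limma's test the log2 fold change was 0.89 (95% interval -0.43 to 2.21, standard error 0.55, adjusted p = 0.627), and no difference was detectable at this depth.

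The widest range belonged to l(2)efl, with a scaled FPKM of 0.386, 15.6 and 3.58 in RasV12 libraries, against 1.85, 4.68 and 17.3 in control libraries. The lowest value rests on 1 fragment and the highest on 22, in the shallow control library 3. RasV12 library 2 and control library 3 were high, and libraries of both groups were low. In limma's test the log2 fold change was -0.50 (95% interval -2.93 to 1.94, standard error 1.02, adjusted p = 0.885), and its sign turned without RasV12 library 1 (0.38) and without control library 3 (0.23).

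**Figure D2:**
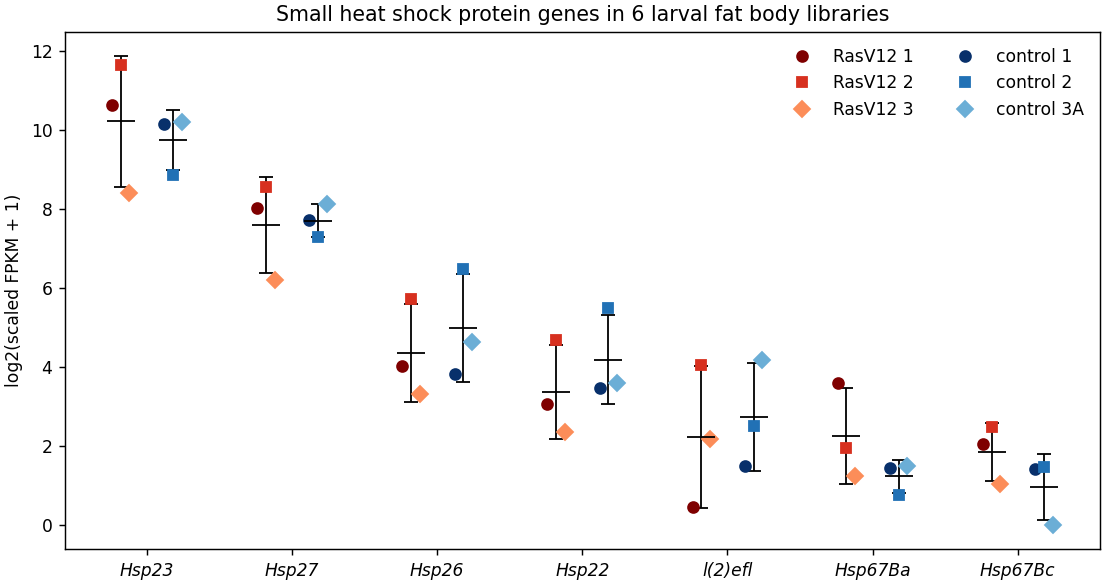
Each point is a library, on a log2(scaled FPKM + 1) axis, with RasV12 (red) left of control (blue) for each gene, and the bars give the mean and SD of 3 libraries. The points of both groups overlap for all 7 genes, and Hsp22 and Hsp26 are highest in control library 2, in which Hsp23 and Hsp27 are lowest among controls.

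All 7 genes passed the minimum mean FPKM of 1 and were among the 7575 genes tested, and all 7 also reached it within each group alone. In limma's test, 0 of the 7 passed an adjusted p under 0.05 with a change over 2-fold, where 0.106% of all genes tested did, and 0 of 7 passed the same fold limit at an unadjusted p under 0.05, where 3.29% of all genes did. The 3 RasV12 values did not stand apart from the 3 control values for any member, whereas they did for 14.7% of all genes tested. Of the 7 log2 fold changes 3 were above 0 and their median was -0.11, beside 0.00 for all genes tested. The intervals span more than 2-fold in at least 1 direction for every member, so changes of that size in the group means lie within the error for these genes. With RasV12 library 3 left out, Hsp23 and Hsp67Ba changed by more than 2-fold at an unadjusted p under 0.05, and neither passed after adjustment. In that fit 510 of the 7592 genes tested passed the same unadjusted limits.

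**Figure D3:**
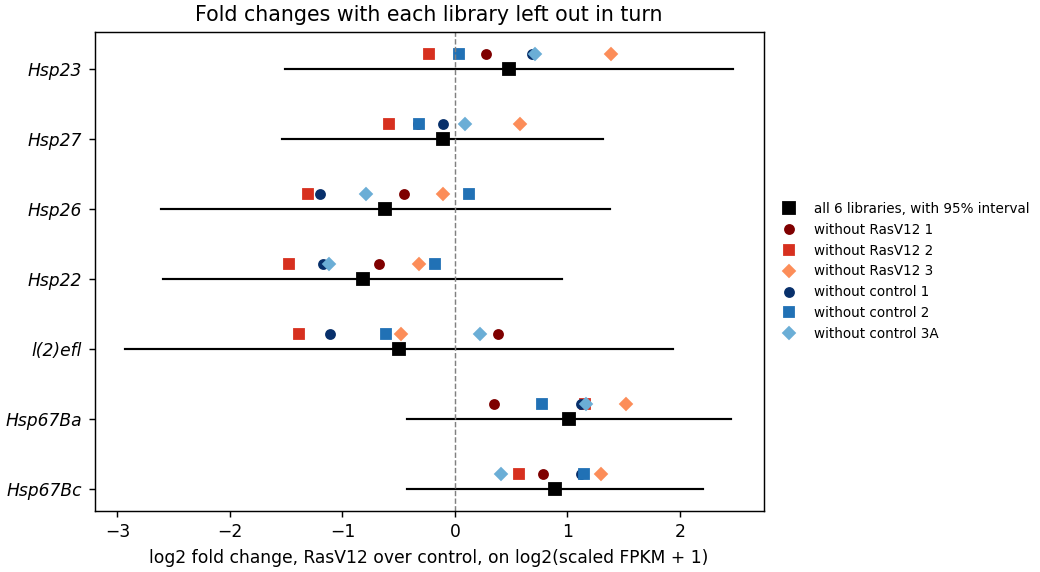
Log2 fold changes of RasV12 over control libraries (black squares, all 6 libraries, with 95% intervals from limma) and the values with each library left out in turn (coloured points above each line). Every interval includes 0, and for Hsp23, Hsp27, Hsp26 and l(2)efl the points fall on both sides of 0.

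The members varied more within a genotype than most genes did. The residual SD of log2(scaled FPKM + 1) was 1.29 for Hsp23, 0.91 for Hsp27, 1.30 for Hsp26, 1.16 for Hsp22 and 1.59 for l(2)efl, against a median of 0.25 over all genes tested. Hsp67Ba and Hsp67Bc, at 0.90 and 0.79, stood at the 91.7th and 89.6th percentile of all genes and the other members above them. Low fragment counts add to the spread of a scarce gene, but the abundant members were also variable. Of the 110 genes with a mean scaled FPKM at or above that of Hsp23, itself included, 0 had a larger residual SD, and 20 of the 466 genes at or above the level of Hsp27 had a larger one than Hsp27. The SD of the log2 values was larger among RasV12 than among control libraries for Hsp23 (1.65 and 0.77), Hsp27 (1.23 and 0.41), Hsp67Ba (1.21 and 0.42), l(2)efl (1.79 and 1.36) and Hsp22 (1.19 and 1.12), and smaller for Hsp26 (1.23 and 1.36) and Hsp67Bc (0.74 and 0.84). This difference in spread was not tested.

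The sequencing runs of control library 3 show how far a repeat run of the same sample moved the values. In run 3A and run 3B, the deposited FPKM of Hsp23 was 954 and 914, resting on 1941 and 595 fragments, and that of Hsp27 was 223 and 233. The difference between runs was thus small beside the range of both genes over the 6 libraries, whose highest value was 9.43-fold the lowest for Hsp23 and 5.09-fold for Hsp27. Hsp26 had an FPKM of 19.4 in run 3A and 13.0 in run 3B, Hsp22 had 9.00 and 15.7, and l(2)efl had 13.98 and 10.4, with 10 or fewer fragments for each of these genes in run 3B. Hsp67Ba differed by the largest factor among the 6 members detected, with an FPKM of 1.50 in run 3A and 4.19 in run 3B, resting on 7 and 6 fragments. Hsp67Bc was listed at 0 in both runs.

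The family was ordered by its mean level over the 6 libraries as Hsp23, Hsp27, Hsp26, Hsp22, l(2)efl, Hsp67Ba and Hsp67Bc. Within a library, Hsp23 exceeded Hsp27, Hsp27 exceeded Hsp26 and Hsp26 exceeded Hsp22 in 6 of 6 libraries. Below them the order changed, since Hsp22 exceeded l(2)efl in 5 libraries, l(2)efl exceeded Hsp67Ba in 5, and Hsp67Ba exceeded Hsp67Bc in 4. The ranges of neighbouring genes in this order overlapped across libraries in every case. Summed over the family, the scaled FPKM was 1869, 3634 and 428 in RasV12 libraries, against 1371, 755 and 1509 in control libraries. Hsp23 and Hsp27 made up 95.5% to 98.0% of that sum in RasV12 libraries and 96.4% to 97.9% in control libraries 1 and 3. In control library 2 they made up 81.6%, and the other 5 members together reached a scaled FPKM of 139, against 19.2 to 99.5 in RasV12 libraries and 28.6 and 54.2 in the other controls.

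Ratios of FPKM between genes of the same library do not depend on scaling between libraries. Hsp26 over Hsp22 was 2.07, 2.11 and 2.19 in RasV12 libraries, against 1.28, 2.02 and 2.15 in control libraries, although the level of either gene changed about 10-fold over the same libraries (9.76-fold for Hsp26 and 10.6-fold for Hsp22). Control library 1 was the exception to that narrow range. Hsp23 over Hsp27 was 6.05, 8.52 and 4.60 in RasV12 libraries, against 5.42, 2.98 and 4.28 in control libraries (exact two-sided permutation test of the log2 ratio, p = 0.2). Hsp23 over Hsp26, which sets members of different profile against each other, was 103, 61.0 and 37.1 in RasV12 libraries, against 86.6, 5.22 and 49.2 in control libraries (exact permutation p = 0.6). Control library 2 stood at the low end, below all other libraries.

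**Figure D4:**
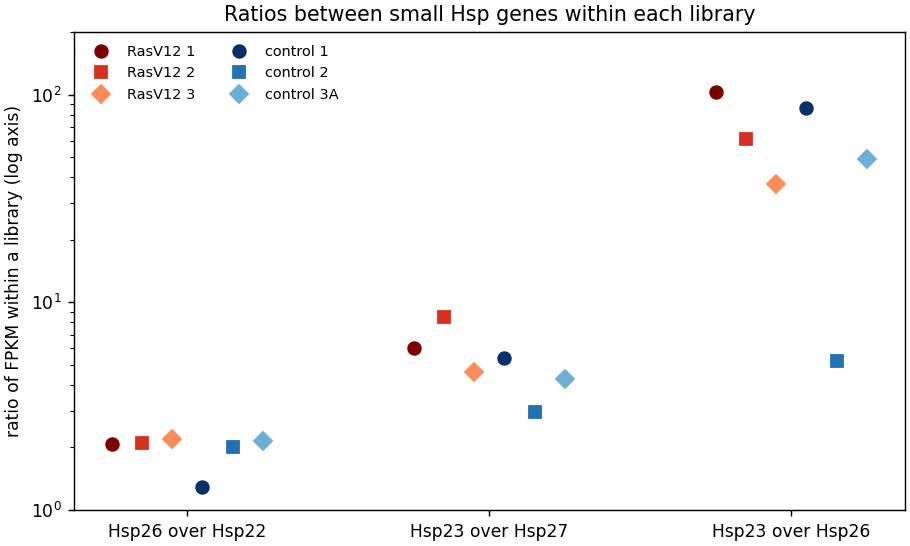
Ratios of FPKM between members within each library on a log axis, with RasV12 libraries (red) left of control libraries (blue). Hsp26 over Hsp22 lies between 2.02 and 2.19 in 5 libraries, whereas Hsp23 over Hsp26 spans 5.22 in control library 2 to 103 in RasV12 library 1.

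Over the 6 libraries, log2(scaled FPKM + 1) of Hsp22 and Hsp26 had a Pearson r of 0.97 (exact permutation p = 0.00417, adjusted over the 21 pairs of members p = 0.0438) and a Spearman rho of 0.94 (exact permutation p = 0.0167, adjusted p = 0.175), and r was 0.92 without the 2 libraries farthest from the median. Hsp23 and Hsp27 had an r of 0.93 (exact permutation p = 0.00417, adjusted p = 0.0438) and a rho of 0.94 (exact permutation p = 0.0167, adjusted p = 0.175), and r was 0.91 without RasV12 libraries 2 and 3. Across these pairs r was 0.18 for Hsp23 and Hsp26 and 0.19 for Hsp22 and Hsp23 (exact permutation p = 0.735 and 0.729, both adjusted p = 0.735), and 0.40 for Hsp22 and Hsp27 and 0.38 for Hsp26 and Hsp27 (exact permutation p = 0.451 and 0.472, both adjusted p = 0.709). These values were not stable, since without the 2 libraries farthest from the median r was -0.93 for Hsp23 and Hsp26, 0.80 for Hsp22 and Hsp23, 0.80 for Hsp22 and Hsp27 and 0.85 for Hsp26 and Hsp27. The adjusted p for r was also 0.709 in all remaining pairs. Libraries of both genotypes enter each of these values, and all genes of a library share its depth and its larvae.

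The developmental pattern was read from 14 genes of the early ecdysone response, all of which were tested. An r over 0.8 with Hsp23 across the 6 libraries was found for 7 of the 14 genes and for 6.55% of all genes tested, and the median r was 0.82 for the list and 0.01 for all genes. With Hsp27 it was also found for 7 of 14, with a median r of 0.84, against 3.87% of all genes. The hormone-induced nuclear receptor gene Hr4 had a scaled FPKM of 7.63, 22.5 and 1.06 in RasV12 libraries, against 10.2, 2.63 and 7.39 in control libraries (r of 0.97 with Hsp23). Hr46, which encodes the receptor DHR3, had 5.05, 7.79 and 0.634 in RasV12 libraries, against 5.34, 1.30 and 3.28 in control libraries (r of 0.97). E23, an ABC transporter gene induced by the hormone, had 48.3, 54.7 and 13.4 in RasV12 libraries, against 36.7, 18.5 and 40.2 in control libraries (r of 0.97). Each of these genes was highest in RasV12 library 2 and lowest in RasV12 library 3, with control library 2 the lowest control, as was found for Hsp23 and Hsp27. The others over 0.8 with Hsp23 were Kr-h1, Eip78C, br and Eip75B. The hormone receptor genes did not share that profile, with an r of -0.45 for EcR and 0.02 for usp, and their scaled FPKM varied little, from 46.3 to 68.3 for EcR and from 12.9 to 16.7 for usp over all 6 libraries. Other genes of the list also had a negative r with Hsp23, namely vri (-0.49), Eip71CD (-0.27) and Cyp18a1 (-0.11). A positive r was found for 10 of the 14 genes with Hsp23 and for 9 with Hsp27.

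Between the genotypes the early ecdysone genes were not separated. Of the 14, limma called 0 at an adjusted and 0 at an unadjusted p under 0.05, whereas 712 of all 7575 genes tested had an unadjusted p under 0.05. In this list 6 genes had a log2 fold change above 0, and the median was -0.01, beside 0.00 for all genes tested. The late ecdysone list could not be read in the same way, since 4 of its 24 genes were tested and 10 were listed at 0 in all 6 libraries. An r over 0.8 with Hsp67Ba was found for 1 of these 4 and for 8.13% of all genes tested. That gene was ftz-f1, a nuclear receptor gene expressed after the hormone pulse (r of 0.84), at a scaled FPKM of 2.08, 1.21 and 1.45 in RasV12 libraries and of 1.18, 1.06 and 0.998 in control libraries. ImpE2, an imaginal disc gene induced by ecdysone and too scarce to be tested, had 3.57, 1.09 and 0 in RasV12 libraries and was listed at 0 in all 3 control libraries. Like Hsp67Ba it was highest in RasV12 library 1.

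The stress pattern was read from 12 inducible heat shock genes. Of these, 10 were highest in control library 2 (83.3%), as were Hsp22 and Hsp26, whereas 15.7% of all genes tested were highest there. The 10 are Hsp68, Hsp83, DnaJ-1, stv and the 6 Hsp70 genes, which are copies and not separate observations, so the percentage overstates the likeness. Hsromega was highest in control library 3 (89.7, against 76.9 in control library 2) and Hsp67Bb in RasV12 library 2. The maximum also lay in control library 2 for 6 of the 10 tested ER stress genes (60%) and 8 of the 14 tested constitutive chaperones (57.1%). Hsp70Aa had a scaled FPKM of 4.66, 1.61 and 6.25 in RasV12 libraries, against 1.02, 37.7 and 2.83 in control libraries. The 6 Hsp70 genes are near-identical copies, and the authors' counting could divide reads among them, so their single values are uncertain. Apart from them, the Hsp40 gene DnaJ-1 had 13.9, 23.7 and 31.3 in RasV12 libraries, against 11.2, 73.9 and 10.8 in control libraries. Hsp68 had 30.5, 35.4 and 42.2 in RasV12 libraries, against 34.1, 82.8 and 25.3 in control libraries, and Hsp83, the Hsp90 gene, had 167, 264 and 240 against 167, 340 and 130. The peak of control library 2 was thus common to chaperones of several classes.

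The likeness of Hsp22 and Hsp26 to these genes was partial. The median r with the inducible heat shock genes, the Hsp70 copies included, was 0.53 for Hsp22 and 0.56 for Hsp26, and -0.03 for both over all genes tested, but 0 of the 12 genes exceeded 0.8 with either. Among the 14 tested constitutive chaperones 1, Hsc70Cb, exceeded 0.8 with both (0.91 with Hsp22 and 0.96 with Hsp26). Of all genes tested, 0.581% did so with Hsp22 and 0.594% with Hsp26. Hsp22 and Hsp26 had their next highest value in RasV12 library 2, as did Hsp83, whereas DnaJ-1 and Hsp68 had theirs in RasV12 library 3. For Hsp23 and Hsp27 the median r with the same list was negative, at -0.49 and -0.32. Single genes of other stress lists were nonetheless over 0.8 with both. These were Mmp1 (0.94 and 0.96), 1 of 16 tested oxidative and JNK stress genes, and Hsc70-4 (0.88 and 0.85), 1 of 14 tested constitutive chaperones. Of all genes tested, 6.55% were over 0.8 with Hsp23 and 3.87% with Hsp27. Mmp1 was also highest in RasV12 library 2 and lowest in RasV12 library 3. Hsf, which encodes the heat shock factor, had a scaled FPKM of 13.7 to 15.7 in RasV12 libraries, against 13.4 to 16.2 in control libraries, where limma gave a log2 fold change of 0.02 with an adjusted p = 0.975 (standard error 0.13).

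Between the genotypes, limma called 0 of the 12 inducible heat shock genes at an adjusted p under 0.05. By more than 2-fold and without adjustment it called 1, Hsp67Bb, where 3.29% of all genes tested were called. The values of Hsp67Bb rest on 1, 2 and 1 fragments in RasV12 libraries and 0, 0 and 0 in control libraries. Both groups lie at or under a floor of 3 fragments a library, so no fold is given for Hsp67Bb, and its gene model lies within that of Hsp22. The median log2 fold change of the list was -0.19, with 5 genes above 0. Of the constitutive chaperones, 14 of 18 were tested, 0 changed by more than 2-fold with or without adjustment, and the median was 0.03. Changes under 2-fold had an unadjusted p under 0.05 for T-cp1 (log2 fold change 0.49) and mrj (0.62). Of the 10 tested genes of the ER stress list 0 were called by more than 2-fold, PEK had an unadjusted p under 0.05 (-0.70) and the median was -0.34. For the 16 tested genes of the oxidative and JNK stress list 0 were called after adjustment, and 3 had an unadjusted p under 0.05. These were TotC (log2 fold change 1.53) and Jafrac1 (-1.40) with changes over 2-fold and TotA (0.91) with a smaller one. Of all 7575 genes tested, 712 had an unadjusted p under 0.05 at any fold, and 3.29% had one with a change over 2-fold.

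**Figure D5:**
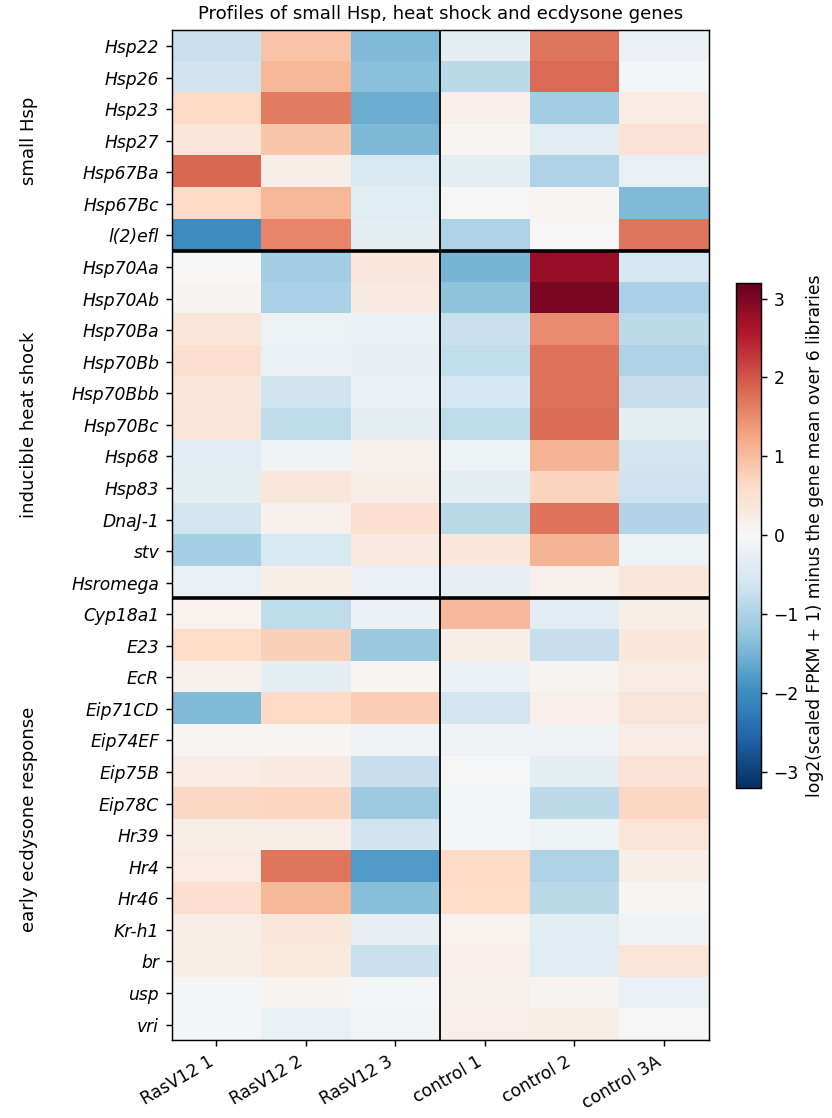
Log2(scaled FPKM + 1) minus the mean of the gene over 6 libraries (colour scale in log2 units) for the 7 members, 11 inducible heat shock genes (Hsp67Bb left out) and 14 early ecdysone genes, with RasV12 libraries left of control libraries. Hsp22 and Hsp26 share with the Hsp70 genes a maximum in control library 2, and Hsp23 and Hsp27 share with Hr4, Hr46 and E23 a maximum in RasV12 library 2 and a minimum in RasV12 library 3.

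Markers of other tissues moved with some of these values, and their part in the results was not tested. Larval cuticle genes, of which 4 of 10 were listed at 0 in all libraries and 5 were tested, summed to a scaled FPKM of 3.10 to 36.7 in RasV12 libraries and to 2.09, 268 and 8.37 in control libraries 1, 2 and 3. The peak of Hsp22 and Hsp26 and of the heat shock genes therefore lies in the library with the most cuticle RNA, and an r over 0.8 with Hsp26 was found for 2 of the 5 (Lcp1, 0.83, and Lcp2, 0.85) and for 0.594% of all genes tested. The other 3 had an r of 0.73 (Lcp3), 0.71 (Lcp4) and 0.02 (Cpr65Ay). Muscle genes, of which 11 of 13 were tested, summed to 23.2, 68.8 and 73.1 in RasV12 libraries and to 54.4, 72.4 and 124 in control libraries. An r over 0.8 with l(2)efl was found for 7 of the 11, among them Mlc1, up and Tm2, which encode contractile proteins, and for 1.66% of all genes tested. Act57B, a muscle actin, was lowest in RasV12 library 1 (1.96) and highest in control library 3 (30.6), as was l(2)efl.

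Testis genes, with 14 of 21 matched names tested, were all highest in RasV12 library 2, the library in which Hsp23 and Hsp27 peaked. They summed to 15.4, 276 and 46.4 in RasV12 libraries and to 4.88, 9.55 and 1.79 in control libraries, although gonads were left out at dissection. All 14 had a log2 fold change above 0, with a median of 1.49. Limma called 3 of them (Mst84Da, Mst87F and ocn) more than 2-fold higher at an unadjusted p under 0.05, beside 3.29% of all genes tested in either direction, and 0 after adjustment. Of all genes tested, 17.6% were highest in RasV12 library 2. Of the 14, 0 had an r over 0.8 with Hsp23 or Hsp27, but all 14 had a positive r with Hsp23, with a median of 0.41 beside 0.01 for all genes tested. All 14 also had a positive r with Hsp67Bc, which likewise was highest in RasV12 library 2, with a median of 0.56 beside -0.004 for all genes tested. An r over 0.8 with Hsp67Bc was found for Mst87F (0.86) and for 3.34% of all genes tested. Larval midgut genes summed to 1.46 to 2.77 in RasV12 libraries and to 148, 19.4 and 3.80 in control libraries, with Jon99Ci at 0 throughout. Of the 3 tested, limma called 1, Jon25Bi, by more than 2-fold at an unadjusted p under 0.05 (log2 fold change -2.45), and 0 after adjustment. Hemocyte genes summed to 207 to 253 in RasV12 and 159 to 209 in control libraries. The larger part was srp (81.9 to 106 in RasV12 and 101 to 124 in control libraries) and crq (56.2 to 61.2 and 46.9 to 53.2). This sum is therefore not a measure of hemocyte RNA. Limma called 5 of the 8 tested (He, Hml, NimC1, Pxn and eater) more than 2-fold higher in RasV12 at an unadjusted p under 0.05, beside 3.29% of all genes tested in either direction, and 0 after adjustment. He was listed at 0 in RasV12 library 3 and Hml in RasV12 library 1, and both were listed at 0 in all 3 control libraries. The other hemocyte genes tested were not called, with a log2 fold change of 0.22 for crq, -0.18 for srp and -0.72 for PPO2. The scaled FPKM of PPO2 was 1.14, 5.70 and 68.2 in RasV12 libraries, against 5.24, 44.9 and 14.4 in control libraries. Glue genes of the salivary gland summed to 7.36 to 11.7 in RasV12 and 7.40 to 23.7 in control libraries. Of the 4 tested, 1, Sgs5, had an unadjusted p under 0.05, with a change under 2-fold (log2 fold change -0.69) resting on 3 to 11 fragments a library. Of all 7575 genes tested, 712 had such a p at any fold. Imaginal disc genes summed to 51.2 to 63.0 in RasV12 and 53.7 to 65.8 in control libraries, with 4 of 10 tested. Most of that sum came from ap (32.1 to 40.1 in RasV12 and 33.2 to 43.8 in control libraries) and ci (13.7 to 17.6 and 14.2 to 17.5). The disc genes vg, nub, wg, en and salm reached at most 0.343 in any library, so the sum is not a measure of disc RNA. Fat body markers ran against some members, with a median r of -0.82 with Hsp67Bc (0 of 9 positive) and -0.62 with Hsp23 (2 of 9 positive). Over all genes tested these medians were -0.004 and 0.01. Limma called 0 of the 9 by more than 2-fold, and Lsp1beta had an unadjusted p under 0.05 (log2 fold change -0.79).

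Of the other alpha-crystallin genes, CG14207 was the only one tested, at a scaled FPKM of 181, 183 and 379 in RasV12 libraries, against 228, 391 and 322 in control libraries. In RasV12 library 3, the library in which Hsp23 was lowest, CG14207 exceeded Hsp23 itself, whereas in RasV12 libraries 1 and 2 it lay below Hsp27. Its r was -0.88 with Hsp23 and -0.73 with Hsp27. Control library 2 and RasV12 library 3 were highest for CG14207 and lowest for Hsp23 and Hsp27. Control library 3 did not follow that pattern, with CG14207 at 322, Hsp23 at 1179 and Hsp27 at 275. For CG14207 limma gave a log2 fold change of -0.40 with an adjusted p = 0.720 (standard error 0.35). CG4461, which lies between Hsp22 and Hsp26, rested on 1, 1 and 0 fragments in RasV12 and 0, 1 and 0 in control libraries, and CG7409 and CG13133 were listed at 0 in all 6. Within the cluster the neighbours Hsp26 and Hsp67Ba had an r of -0.31 (exact permutation p = 0.589, adjusted over the 21 pairs p = 0.709).

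The genes most like the mean profile of the 7 members, by Pearson r over the 6 libraries, were rdgB (0.99), CG11750 (0.97), vap (0.97), eIF6 (0.97) and CG9384 (0.96). Their range was narrow beside that of the members. The phosphatidylinositol transfer protein gene rdgB had a scaled FPKM of 2.51, 3.31 and 2.07 in RasV12 libraries, against 2.39, 2.73 and 2.54 in control libraries. The translation factor gene eIF6 had 18.7, 26.2 and 12.4 in RasV12 libraries, against 15.9, 19.2 and 15.9 in control libraries.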

How the data were processed

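RNA from larval fat bodies was measured in 3 RasV12 and 3 control libraries of 40 larvae each. The authors mapped the reads with TopHat 1.0.14 and deposited FPKM per gene with confidence bounds from Cufflinks 0.0.5, on the Ensembl annotation of BDGP5. The authors' Cuffdiff comparison was not used. Coordinates are counted from 1. The fragments behind an FPKM were worked out from its bounds, and they limit the precision of low values. Control replicate 3 was taken from run 3A, and the merged table and run 3B served as alternatives. FPKM were divided by the 75th percentile of the library relative to the mean of the 6, leaving out genes listed at 0 in every library.

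With limma 3.58.1 in R 4.3.3, log2(scaled FPKM + 1) was compared for genes whose mean FPKM reached 1 (lmFit, eBayes with trend, no block) with Benjamini-Hochberg adjustment. Fold changes on this scale understate the change of low genes. Single values were compared with exact two-sided permutation tests over 20 assignments. Named genes were the members, list genes past a threshold or extreme in their list, genes overlapping a member, Ras85D, Bx and the 5 genes most like the members' mean. Values of other list genes (Hr4, Hr46, E23, EcR, usp, DnaJ-1, Hsp68, Hsp83, ImpE2 and the markers) were added after they were seen. Bx, whose enhancer drives GAL4, had a scaled FPKM of 3.07, 1.19 and 1.36 in RasV12 and 1.23, 0.810 and 0.572 in control libraries. The members and lists were chosen with earlier results of these data known. The test was tested on simulated data. Alternatives changed the pseudocount, filter, scaling, control replicate 3 table and variance moderation, added a replicate block, or left out each library. Python 3.11.15 with pandas 2.3.3, numpy 2.4.6 and matplotlib 3.10.9 was used for the rest.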

Additional observations from a re-analysis of the deposited data

How the results depend on the processing

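The number of genes past an adjusted p under 0.05 with a change over 2-fold was 8, and it was 5 with a pseudocount of 5, 5 with run 3B as control replicate 3, and 5 to 61 with a library left out, where 61 belongs to RasV12 replicate 3 and 5 to RasV12 replicate 2. At an unadjusted p it was 249, and 128 with a pseudocount of 5, 157 with a mean FPKM of at least 5, and 161 to 510 with a library left out. Of these 70.7% were higher in RasV12 (176 of 249), and 84.4% without scaling (254 of 301). Over these alternatives 0 members passed the adjusted threshold. The adjusted p of a member ranged over them from 0.253 for Hsp67Ba and 0.272 for Hsp23, both without RasV12 replicate 3, to 0.996. No member could be given a value under a filter it does not pass, which removed Hsp67Ba and Hsp67Bc at a mean FPKM of at least 5. Leaving out single libraries moved the log2 fold change of Hsp22 between -1.47 and -0.17, of Hsp23 between -0.23 and 1.39, of Hsp26 between -1.30 and 0.13, of Hsp27 between -0.59 and 0.58, of Hsp67Ba between 0.35 and 1.52, of Hsp67Bc between 0.41 and 1.30, and of l(2)efl between -1.39 and 0.38. With pseudocounts of 0.1 and 5 it was 1.36 and 0.54 for Hsp67Ba, 1.90 and 0.35 for Hsp67Bc, and -0.84 and -0.21 for l(2)efl. The value of Hsp27 was 0.11 without scaling, which raised the median of all genes to 0.20. With a library left out the ratio of means ranged from 0.266 to 1.13 for Hsp22, 1.04 to 2.56 for Hsp23, 0.291 to 1.37 for Hsp26, 0.783 to 1.48 for Hsp27, 1.47 to 4.85 for Hsp67Ba, 1.69 to 3.46 for Hsp67Bc and 0.249 to 1.99 for l(2)efl. It turned for Hsp22 (1.13) and Hsp26 (1.37) without control replicate 2, for Hsp27 without RasV12 replicate 2 (0.783) or control replicate 2 (0.969), and for l(2)efl without scaling (1.11), RasV12 replicate 1 (1.21), RasV12 replicate 3 (1.01) or control replicate 3 (1.99). The cause was not tested.

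The labels do not say whether libraries of the same replicate number were prepared together. The correlations of their deviations from the group means were 0.0879, -0.168 and -0.150, which cannot settle it with 3 libraries in a group. With a replicate block 3 genes passed the adjusted threshold and 250 the unadjusted one, and 0 members did. Hsp22 and Hsp67Bc had an unadjusted p under 0.05 in that fit, with changes under 2-fold (-0.82 and 0.89).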
